A study of Mus musculus with 12 samples.

Results

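The Nrf2 antioxidant genes described here are 10 genes of the oxidative stress response, taken by gene symbol from the table of normalised counts of an mRNAseq experiment on LPS-activated mouse B cells: Nfe2l2, Keap1, Hmox1, Nqo1, Gclc, Gclm, Txnrd1, Srxn1, Slc7a11 and Prdx1. All 10 were found among the 29486 genes listed. The rule that picks them names genes of known function and uses no measured value. The 10 genes were, however, chosen with earlier results of these data known.

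Nrf2, the protein encoded by Nfe2l2, is a transcription factor that cells hold at low levels under resting conditions because Keap1 presents it to a Cul3 ubiquitin ligase for degradation. Oxidants and electrophiles modify cysteines of Keap1, Nrf2 escapes and binds antioxidant response elements together with small Maf proteins, and genes for glutathione synthesis, thioredoxin reduction, quinone reduction and heme breakdown are transcribed. The mRNA level of a target gene does not by itself report Nrf2 protein, which is controlled mainly after translation, and several of these genes also answer to other transcription factors such as Bach1, AP-1 and Atf4.

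Splenic B cells of C57BL/6Babr mice were taken with a B cell isolation kit and activated in culture with LPS, a bacterial lipopolysaccharide that drives B cells to divide, at 10 µg/ml in medium with beta-mercaptoethanol, a reducing agent shared by all groups. The LPS group had LPS for 48 h. The LE group had LPS for 48 h and then etoposide, a topoisomerase II poison that causes DNA double-strand breaks, at 20 µM for 4 h. The LEKU group had LPS for 47 h, then KU55933, an inhibitor of the DNA damage kinase ATM, at 10 µM for 1 h, and then etoposide at 20 µM for 4 h. Each group had 4 libraries, and no cells received KU55933 without etoposide. The labels spell the inhibitor KU55933 in the sample titles and KU59933 in the stimulation field. They give neither the total culture time of the LPS group nor the number of mice, and the age of the mice is given only in the methods of the study, which used young adults. Each group carried sequencing indexes that no other group carried, so index and condition cannot be told apart.

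Column totals were 20739978 to 23935658 in LPS, 22523516 to 30575195 in LE and 20400994 to 25052093 in LEKU. The 4 columns of a group differed by 1 factor that was the same for every gene, to within 2.7e-14 on the log2 scale, so each column is a fitted group mean multiplied by a library factor. After division by the factors every gene had the same value in the 4 libraries of a group. A group therefore counts as 1 value with no replicate spread, no test of a difference could be made, and the words higher and lower below describe sizes only. Levels are normalised read counts, differences are on the log2(value + 1) scale, and the 95% intervals cover counting error only, computed as if the 4 fitted columns were counts. Real spread between cultures would widen them. A difference of 1.5-fold or more, in genes with a value of at least 10 in at least 4 libraries (15613 genes, called kept genes below), is the size counted here. Of the 10 Nrf2 antioxidant genes, 9 passed that filter, each with at least 10 in every group, and Srxn1 did not. Some of the 15613 genes, 1662, passed although they lay under 10 in a group.

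The labelled cell type was checked against its markers. The 5 B cell markers read here (Cd79a, Cd79b, Ms4a1, Pax5, Cd22) were at 1139 or more in every group, with a summed level of 102297 in LPS, 55908 in LE and 53428 in LEKU. The 5 T cell markers summed to 7.42 to 8.78 and the 4 neutrophil markers to 1.15 to 1.56. The 8 macrophage and monocyte markers, a cell type rich in Hmox1, summed to 410 in LPS, 478 in LE and 436 in LEKU, with C1qa and C1qb under 2 in every group. The 4 red blood cell markers summed to 205, 179 and 109. Plasmablast markers differed by gene: Sdc1 was at 135, 1984 and 641, whereas the sum of the 4 was 13692 in LPS, 14329 in LE and 10072 in LEKU. The part of macrophage, red blood cell and plasmablast RNA in the differences below was not tested. In bulk RNA, fewer cells of a type and less RNA per cell cannot be told apart.

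The antioxidant response element is the DNA sequence through which Nrf2 reaches its targets, and its core was looked for in the promoters to show which of the genes carry it close to the start. The letters TGACNNNGC were searched on both strands of RefSeq promoters (GRCm38.p6), each 300 bases long, from 250 bases before the transcription start to 50 after it. Of the 10 genes, 8 had an entry, with 10 promoters because Txnrd1 had 3 starts. Hmox1 and Gclc had none. The core was in 5 of the 8 genes and 5 of the 10 promoters, against 14.0% of all 27025 genes with an entry and 12.4% of all 32851 promoters. The 5 matches follow with 10 bases on each side, 5′ to 3′ on the strand of the gene, with the match in capitals.
Nfe2l2 (chr2:75704885-75704913, minus strand, bases -240 to -232 from the start): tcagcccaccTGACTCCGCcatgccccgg
Gclm (chr3:122245413-122245441, plus strand, bases -134 to -126): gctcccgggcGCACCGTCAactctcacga
Prdx1 (chr4:116685456-116685484, plus strand, bases -133 to -125): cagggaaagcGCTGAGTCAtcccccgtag
Txnrd1, start 2 of 3 (chr10:82859104-82859132, plus strand, bases -92 to -84): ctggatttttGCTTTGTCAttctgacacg
Srxn1 (chr2:152105542-152105570, plus strand, bases 28 to 36): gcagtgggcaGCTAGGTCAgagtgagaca
In Nfe2l2 the match reads TGACTCCGC on the strand of the gene. The other 4 lie on the opposite strand, where they read TGACGGTGC in Gclm, TGACTCAGC in Prdx1, TGACAAAGC in Txnrd1 and TGACCTAGC in Srxn1. The match of Prdx1 overlaps TGANTCA, the motif of AP-1 factors, which 7.81% of all promoters held. Slc7a11, Nqo1, Keap1 and the other two Txnrd1 starts held no match in this window, which says nothing of elements farther away. The looser TGANNNNGC was in 7 of the 8 genes, beside 45.0% of all genes, and in 8 of the 10 promoters, beside 41.3% of all promoters. The stricter form with an A after the core was in 1 of the 8 genes and 1 of the 10 promoters. It was in 3.45% of all genes and 3.04% of all promoters. A match is a description of letters and not a measured binding site.

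**Figure D1:**
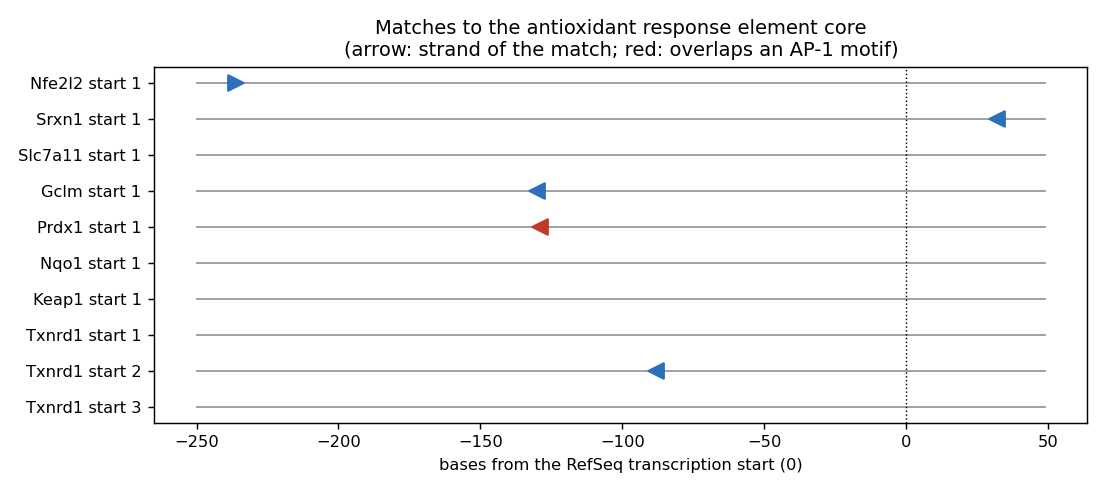
Position of each match to the core TGACNNNGC in the 10 RefSeq promoters of 8 Nrf2 antioxidant genes, as bases from the transcription start (dotted line). Arrows give the strand of the match relative to the gene, and red marks the Prdx1 match that overlaps an AP-1 motif; 4 of the 5 matches lie before the start and the match of Srxn1 lies after it.

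The first comparison, LE against LPS, addresses which transcripts differ after etoposide in activated B cells. Because the total culture time of the LPS group is not given, longer culture and etoposide cannot be told apart here. The same holds for LEKU against LPS. After etoposide, Hmox1 was 4.01-fold, Txnrd1 1.83-fold and Nfe2l2 1.58-fold higher, and Keap1 was 1.63-fold lower. These were 3 of 9 genes higher past 1.5-fold, where 23.4% of all kept genes were higher, and 1 of 9 lower, where 14.4% were lower. Quantile normalisation gave 3 higher and 3 lower, adding Gclm and Slc7a11, and the columns as deposited gave 5 higher, adding Gclc and Srxn1, and 0 lower. The median difference of the 10 genes was 0.38, and 0.30 over the 9 that were kept, against 0.04 over all kept genes. Of the 10, 7 had a positive difference, which Nqo1 lost under quantile normalisation. The 3 with a negative difference were Keap1, Gclm and Slc7a11, so the set did not differ in one direction.

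The second comparison, LEKU against LE, addresses which of the transcripts differ when ATM is inhibited during the damage. With KU55933 present, Prdx1 was 1.74-fold, Nqo1 1.71-fold and Hmox1 1.70-fold lower than with etoposide alone, and Gclm was 1.56-fold higher. These were 3 of 9 lower past 1.5-fold, where 11.9% of all kept genes were lower, and 1 of 9 higher, where 6.93% were higher. The median of the 10 genes was -0.39, and -0.51 over the 9 that were kept, against -0.05 over all kept genes. Of the 10, 8 had a negative difference, with Keap1 and Gclm the exceptions. In LEKU against LPS, which takes both agents together, 1 of 9 genes was higher past 1.5-fold (Hmox1; 22.0% of kept genes) and 1 was lower (Slc7a11; 14.2%). The median there was 0.23 for the 10 genes and 0.11 for the 9 that were kept, against 0.07 over all kept genes. Each group enters more than 1 comparison, so the comparisons are not independent.

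**Figure D2:**
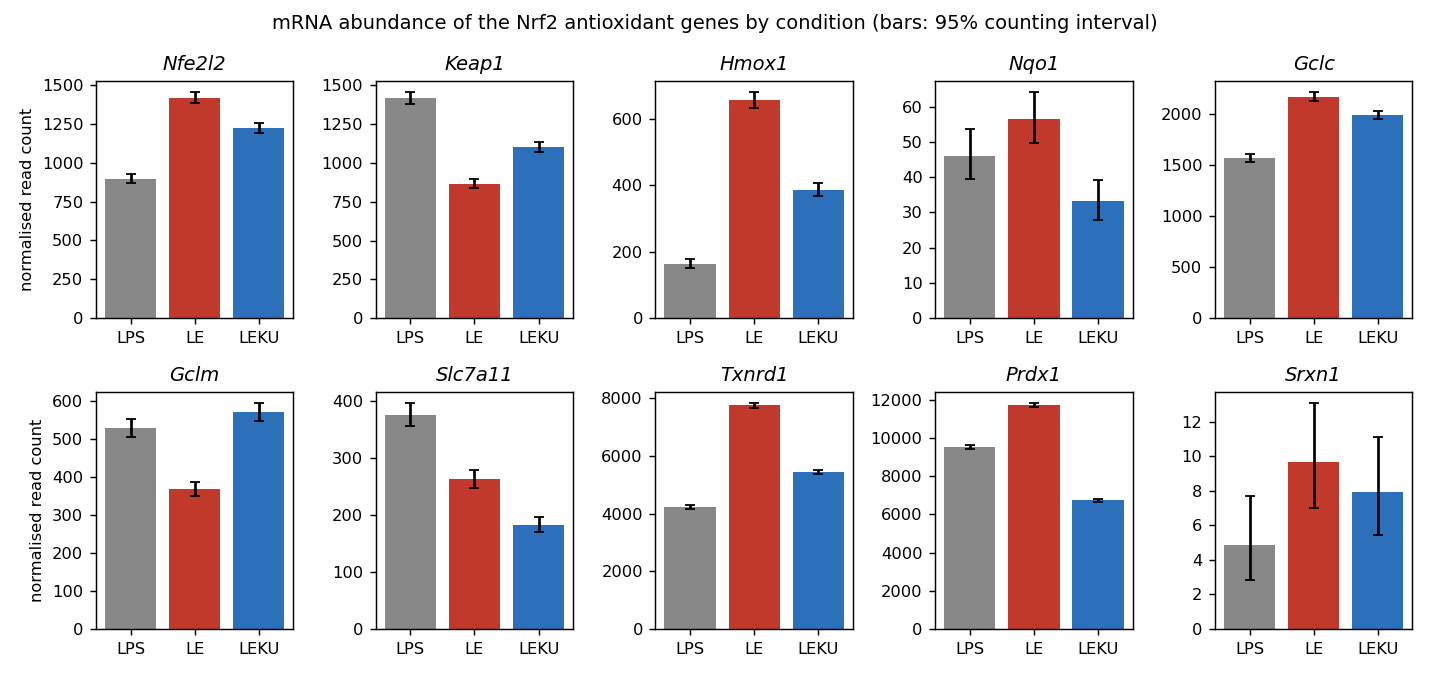
Normalised read count of each Nrf2 antioxidant gene in LPS (grey), LE (red) and LEKU (blue), 1 fitted value per group from 4 libraries; error bars are 95% counting intervals and each panel starts at 0 on its own axis. Hmox1 goes from 164 to 656 and 387, while Keap1, at 1416, 867 and 1100.25, has its lowest level in LE.

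The level per kilobase of exon allows genes to be set beside each other. Prdx1 was the most abundant in every group, at 3141 normalised counts per kilobase in LPS, 3859 in LE and 2219 in LEKU, above at least 96.9% of kept genes. Txnrd1 followed at 597, 1094 and 768, and Gclc at 415, 575 and 527. Below them in LPS came Keap1 at 302, Nfe2l2 at 236, Hmox1 at 93.5, Gclm at 84.0, Nqo1 at 29.7 and Slc7a11 at 27.0 per kilobase, with Srxn1 last at 1.71. In LE the order in the middle was another one: Hmox1 at 375 and Nfe2l2 at 373 stood level with each other, above Keap1 at 185. These are the levels per exonic kilobase of the annotation, and the length of the transcript in use was not measured.

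**Figure D3:**
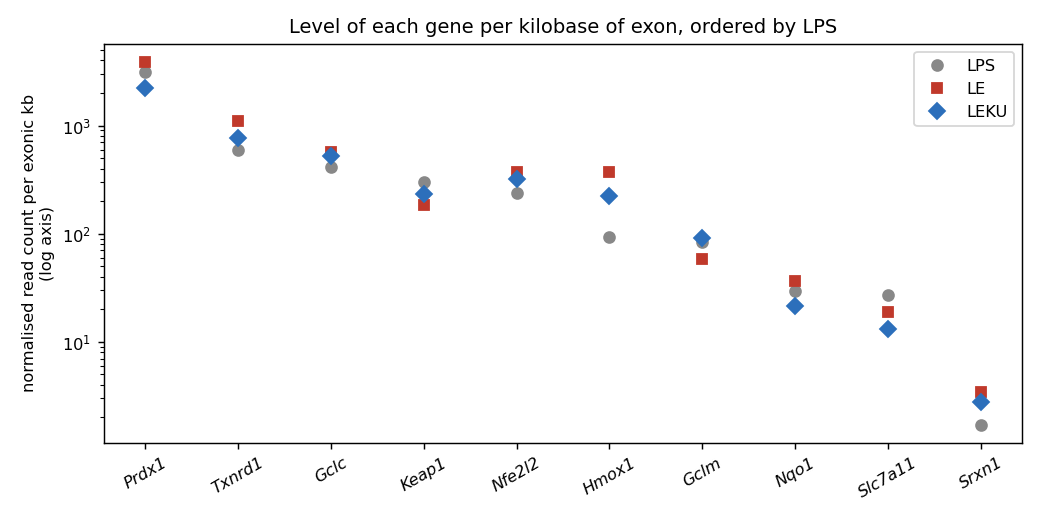
Normalised read count per kilobase of exon (log axis) of the 10 genes in LPS (grey circles), LE (red squares) and LEKU (blue diamonds), ordered by the level in LPS. The genes span from 1.71 for Srxn1 to 3141 for Prdx1 in LPS, and Hmox1 shows the widest gap between groups, from 93.5 to 375.

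Nfe2l2 encodes the activator Nrf2 itself. The gene (ENSMUSG00000015839) lies on the minus strand at chr2:75675513-75704641 (GRCm38, as are all positions of genes below, from GENCODE M21). Its scaled value was 898 in each of the 4 LPS libraries, 1417 in each of the 4 LE libraries and 1224 in each of the 4 LEKU libraries. LE was thus highest and LPS lowest, with LEKU nearer to LE. The log2 difference was 0.66 in LE against LPS (95% counting interval 0.60 to 0.72), -0.21 in LEKU against LE (-0.27 to -0.16) and 0.45 in LEKU against LPS (0.38 to 0.51).

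Keap1 (ENSMUSG00000003308, minus strand, chr9:21229730-21239361) encodes the cysteine-rich sensor that holds Nrf2 in check. Its order was the reverse of that of Nfe2l2, with 1416 in LPS, 867 in LE and 1100.25 in LEKU. The difference was -0.71 in LE against LPS (-0.77 to -0.65), 0.34 in LEKU against LE (0.28 to 0.41) and -0.36 in LEKU against LPS (-0.42 to -0.31). With the columns taken as deposited, without scaling, the difference of Keap1 in LE against LPS was -0.43 and no longer past 1.5-fold. Exons of Keap1 share 510 bases, 10.9% of its exonic length, with the antisense gene Gm16754, which was at 150 in LPS, 109 in LE and 93.5 in LEKU, and the strand setting of the read counting is not given in the sources used here.

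Hmox1 (ENSMUSG00000005413, plus strand, chr8:75093621-75100589) encodes the inducible heme oxygenase, which opens heme to biliverdin, iron and carbon monoxide and is a target of both Nrf2 and its competitor Bach1. The deposited values before scaling were 137, 152, 158 and 143 in the 4 LPS libraries, 628, 704, 853 and 683 in the 4 LE libraries, and 348, 393, 421 and 428 in the 4 LEKU libraries. The spread within a group is the library factor alone. After scaling the levels were 164, 656 and 387, so Hmox1 with KU55933 stood between LPS and etoposide alone. The difference was 2.00 in LE against LPS (1.87 to 2.13), larger than in 94.2% of kept genes, -0.76 in LEKU against LE (-0.85 to -0.67) and 1.24 in LEKU against LPS (1.10 to 1.38). Of the 6 kept macrophage and monocyte markers, 3 were higher and 1 lower past 1.5-fold in LE against LPS, beside 23.4% and 14.4% of all kept genes. Of the higher ones, Cd14 and Csf1r were under 10 in LPS and passed the filter only through groups where they were higher. Cd68 was at 102, 215 and 177, Cd14 at 5.05, 24.6 and 40.9, Csf1r at 4.08, 10.5 and 9.79, and Lyz2 at 33.5, 48.8 and 51.6. Itgam went the other way at 215, 131 and 116, and Adgre1 was at 47.8, 45.9 and 39.8. The part of such cells in the Hmox1 values was not tested.

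Nqo1 (ENSMUSG00000003849, minus strand, chr8:107388225-107403206) encodes a quinone reductase that spares cells the redox cycling of quinones. It was low in these cells, at 46.1 in LPS, 56.5 in LE and 33.1 in LEKU. LEKU was the lowest, with a difference of -0.75 against LE (-1.09 to -0.46) and of -0.46 against LPS (-0.81 to -0.14). In LE against LPS the difference was 0.29, with an interval from 0.01 to 0.59 that nearly reached 0, and under quantile normalisation it was -0.18, the only sign change of any of the 10 genes under any alternative run.

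Glutathione synthesis needs cystine from outside the cell and the enzyme glutamate-cysteine ligase, whose 2 subunits differed in opposite directions in LE against LPS and in LEKU against LE, and were both higher in LEKU than in LPS. Gclc (ENSMUSG00000032350, plus strand, chr9:77754535-77794485), the catalytic subunit, was at 1564 in LPS, 2164 in LE and 1986 in LEKU. Its difference was 0.47 in LE against LPS (0.42 to 0.52), short of 1.5-fold, -0.12 in LEKU against LE (-0.17 to -0.08) and 0.34 in LEKU against LPS (0.30 to 0.39). Gclm (ENSMUSG00000028124, plus strand, chr3:122245557-122270732), the modifier subunit that raises the affinity of the enzyme for its substrate, was at 529 in LPS, 367 in LE and 571 in LEKU. LE was its lowest group and LPS and LEKU lay close together, with a difference of 0.11 (0.02 to 0.20). In LE against LPS the difference was -0.52 (-0.62 to -0.43), and in LEKU against LE it was 0.64 (0.55 to 0.73), larger than in 94.1% of kept genes. With the columns as deposited the latter was 0.55 and no longer past 1.5-fold. Exons of Gclm share 296 bases with Gm17494 on the opposite strand, which was at 657, 695 and 504. They share 244 bases with the pseudogene Gm6061 on the same strand, which is not among the genes listed. How reads in these shared bases were counted is not given in the sources used here.

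Slc7a11 (ENSMUSG00000027737, minus strand, chr3:49892526-50443614) encodes the light chain of the cystine and glutamate exchanger xCT, a target of both Nrf2 and Atf4. It was the only one of the 10 genes to be lower at each step, from 376 in LPS to 263 in LE and 183 in LEKU. With quantile normalisation Nqo1 was lower at each step too, by -0.18 in LE against LPS and -0.61 in LEKU against LE. For Slc7a11 itself the differences were as follows. The difference was -0.51 in LE against LPS (-0.63 to -0.40) and -0.52 in LEKU against LE (-0.66 to -0.39), each short of 1.5-fold. Together they made it 2.06-fold lower in LEKU than in LPS, a difference of -1.04 (-1.17 to -0.91) that was below those of all but 4.91% of kept genes. Its heavy chain Slc3a2, which xCT shares with other amino acid transporters, was at 4431 in LPS, 4006 in LE and 7325 in LEKU, and thus 0.87 higher in LEKU than in LE (0.84 to 0.90) where the light chain was lower.

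Txnrd1, Prdx1 and Srxn1 belong to the thioredoxin arm. Txnrd1 (ENSMUSG00000020250, plus strand, chr10:82833951-82897712), the cytosolic selenoenzyme that reduces thioredoxin with NADPH, was at 4230.3 in LPS, 7750.9 in LE and 5439 in LEKU. LE was highest and LEKU was nearer to LPS than to LE. The difference was 0.87 in LE against LPS (0.85 to 0.90), -0.51 in LEKU against LE (-0.54 to -0.49) and 0.36 in LEKU against LPS (0.33 to 0.39). The annotation gives Txnrd1 8 transcripts, and the deposited table does not show which start was used.

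Prdx1 (ENSMUSG00000028691, plus strand, chr4:116685544-116700822), the abundant cytosolic peroxiredoxin that breaks down hydrogen peroxide, was at 9557 in LPS, 11743 in LE and 6752 in LEKU. Its difference of 0.30 in LE against LPS (0.28 to 0.32) was smaller than that of -0.80 in LEKU against LE (-0.82 to -0.78), so that LEKU lay below both other groups, at -0.50 against LPS (-0.52 to -0.48). Srxn1 (ENSMUSG00000032802, plus strand, chr2:152105516-152111376), sulfiredoxin, which repairs overoxidised peroxiredoxins, was close to the lower limit of measurement at 4.83, 9.69 and 7.91. Its difference in LE against LPS was 0.87, or 1.00 without the added 1, with an interval from 0.18 to 1.93. In both other comparisons the interval held 0, so a difference was not detectable there at this depth.

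**Figure D4:**
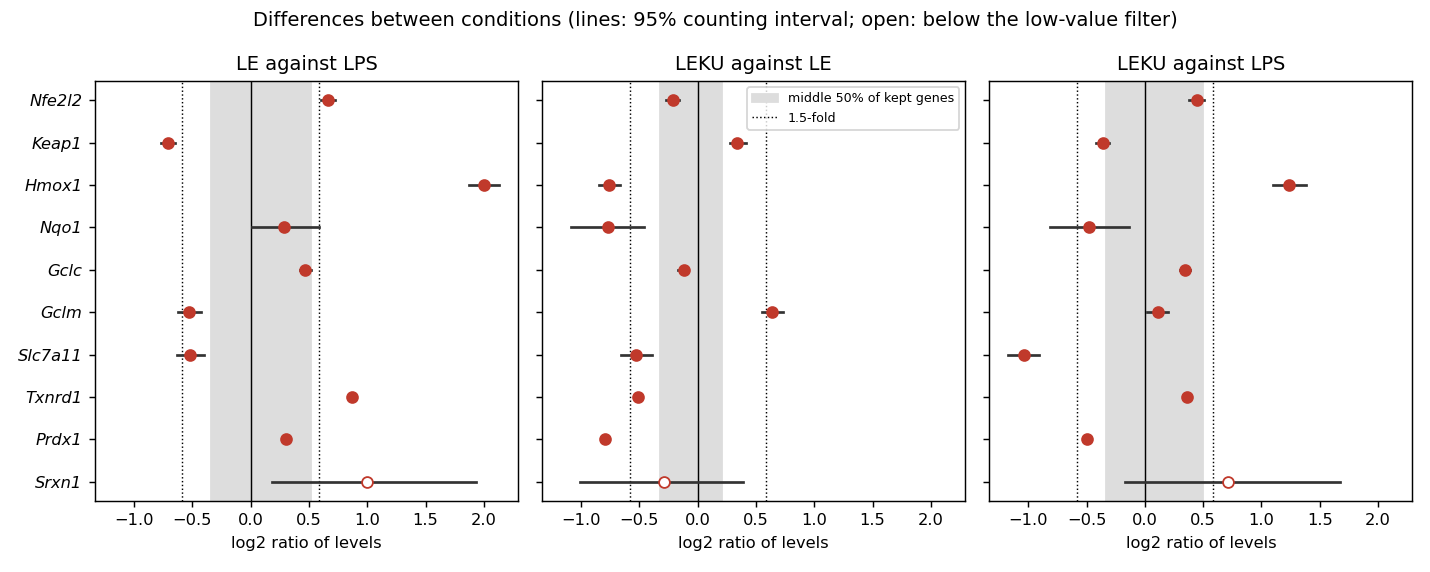
Log2 ratio of the levels of each gene in LE against LPS, LEKU against LE and LEKU against LPS, with 95% counting intervals as lines; the grey band holds the middle 50% of kept genes, dotted lines mark 1.5-fold, and the open symbol is Srxn1, which is below the low-value filter. Hmox1 at 2.00 stands outside the others in LE against LPS, and Prdx1, Hmox1 and Nqo1 lie between -0.80 and -0.76 on this scale in LEKU against LE.

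By the order of the groups, 5 of the genes (Nfe2l2, Hmox1, Gclc, Txnrd1 and Srxn1) were lowest in LPS, highest in LE and in between in LEKU. The share of all kept genes with each order was not computed, so these counts describe the 10 genes only. Nqo1 and Prdx1 were highest in LE too, but lowest in LEKU. With quantile normalisation Nqo1 was highest in LPS instead, at -0.18 in LE against LPS. Keap1 and Gclm had their lowest level in LE, and Slc7a11 had its lowest in LEKU and its highest in LPS. The 5 genes with the core motif in a promoter were in 3 of these groups, with Nfe2l2, Txnrd1 and Srxn1 in the first, Prdx1 in the second and Gclm in the third. The Srxn1 order rests on levels under 10, and its interval in LEKU against LE held 0 (-1.01 to 0.39).

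Other genes of the pathway were read from 7 lists, which were chosen with earlier results of these data known. Of the 19 kept of 20 partners and regulators of Nrf2, 3 were higher and 2 lower past 1.5-fold in LE against LPS, where 23.4% and 14.4% of kept genes were, and the list median was -0.05. With quantile normalisation 3 of them passed in all. Mafk, a small Maf that pairs with Nrf2, was at 704 in LPS, 1372 in LE and 1102 in LEKU, a difference of 0.96 in LE against LPS (0.89 to 1.03). Maff, another small Maf, went with it at 54.0, 117 and 97.8, and Nfe2l3, a relative of Nrf2, at 15.1, 33.0 and 37.1; both were named after their values were seen, being under the level set for naming. The largest difference of the list was that of Bach2, a repressor of the same DNA element and a B cell regulator, at 4767, 1240.27 and 1167, which was -1.94 in LE against LPS (-1.99 to -1.90). Cul3, the scaffold of the ligase that Keap1 serves, was at 4638, 2963 and 2673, a difference of -0.65 in LE against LPS (-0.68 to -0.61). In LEKU against LE 1 of the 19 was higher past 1.5-fold and 0 were lower, beside 6.93% and 11.9% of all kept genes. It was Sqstm1, the p62 protein that sequesters Keap1, at 4055, 4768 and 7413, a difference of 0.64 (0.61 to 0.66). The count was 2 with 5 other scalings and 0 with the columns as deposited. Bach1, which represses Hmox1, was at 593, 660 and 893, within 1.5-fold in both comparisons but 0.59 higher in LEKU than in LPS, at the limit. In LEKU against LPS, 6 of the 19 were higher and 3 lower past 1.5-fold, beside 22.0% and 14.2% of all kept genes. The lower ones included Fbxw11 at -0.59, which was at the limit and was named after its value was seen.

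Of the 31 other targets in glutathione use and detoxification, 22 were kept, with 5 higher and 3 lower in LE against LPS, and 2 higher and 7 lower in LEKU against LE. The shares over all kept genes were 23.4% and 14.4%, then 6.93% and 11.9%, so the counts in LE against LPS were near the background. Without a filter 14 instead of 8 passed there. Their medians were -0.08 and -0.19. The 5 higher were Ephx1, Gss, Ptgr1, Abcc2 and Gstm5 and the 3 lower were Gstt2, Ugdh and Mgst1, while the 2 higher in LEKU against LE were Gstt2 and Slc3a2. The 7 lower in LEKU against LE were Ptgr1, Gss, Pir, Abcc2, Ephx1, Ggt1 and Gstp1. Of these genes, Abcc2, Gstm5, Mgst1, Pir, Ggt1 and Gstp1 were named after their values were seen. Ggt1, at 12.7, 11.9 and 7.18, and Pir, at 12.1, 10.4 and 4.27, passed the filter only through LPS and LE, where they were higher. Gstp1, at -0.59 in LEKU against LE, was at the limit. Abcc2, an export pump for glutathione conjugates, was at 3.83, 90.4 and 42.9, and Gstm5 at 7.62, 13.5 and 10.8, so both passed the filter only through the groups where they were high and had to differ. Ephx1, microsomal epoxide hydrolase, was at 407 in LPS, 3596 in LE and 1933 in LEKU, a difference of 3.14 in LE against LPS (3.06 to 3.22). Gss, glutathione synthetase, which acts after glutamate-cysteine ligase, was at 374, 1941 and 861, with 2.37 in LE against LPS (2.29 to 2.46) and -1.17 in LEKU against LE (-1.23 to -1.12). Both had the order LPS, LEKU, LE, like Hmox1. Gstt2, a glutathione transferase, had the order of Gclm, at 3189, 1334 and 2463, with -1.26 (-1.30 to -1.21) and 0.88 (0.84 to 0.93) in the same comparisons. Ugdh, which makes UDP-glucuronate, was at 929, 583 and 778, and Ptgr1, a prostaglandin reductase, at 233, 391 and 136, the latter -1.52 in LEKU against LE (-1.67 to -1.39).

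Exons of Gss share 395 bases with Acss2 on the opposite strand, which was at 369, 485 and 523, and those of Bach2 share 537 bases with the antisense gene Bach2os, at 47.1, 10.0 and 8.59. Their counts are uncertain to the extent that strand was ignored in the counting.

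Of the 20 further genes of the thioredoxin and peroxiredoxin system, all kept, 6 were higher and 1 lower past 1.5-fold in LE against LPS, and 0 were higher and 5 lower in LEKU against LE, beside 23.4%, 14.4%, 6.93% and 11.9% of all kept genes. Of the 6 higher, Glrx5 and Msrb1, both at 0.59, were at the limit, and with other scalings 5 to 8 passed in all in LE against LPS. The median of the list was 0.15 and then -0.35, and 17 of 20 had a negative difference in the latter, of which Txn2 at -0.03 was within the shift between scalings. The 5 lower genes were Txn1, Txnip, Glrx, Glrx5 and Txndc5, and 8 genes were lower with the columns as deposited. Thioredoxin itself, Txn1, was at 6226, 6964 and 4345, and was named, like Glrx, Glrx5 and Msrb1, after its values were seen. Sesn2, a sestrin linked to the peroxiredoxins and also a p53 target, was at 1195 in LPS, 8611 in LE and 5746 in LEKU, a difference of 2.85 in LE against LPS (2.80 to 2.89). Glrx3, a monothiol glutaredoxin, was at 2221, 4369 and 3027. Txnip, which binds and inhibits thioredoxin, was at 4265, 7212 and 3865, a difference of -0.90 in LEKU against LE (-0.93 to -0.87), and its exons share 606 bases with the antisense gene Gm15441, at 11.9, 12.5 and 12.1. Txndc5, a thioredoxin-like protein of the endoplasmic reticulum, was at 8384, 5763 and 3120, a difference of -0.89 there (-0.92 to -0.85). Msra, a methionine sulfoxide reductase, was the lower gene in LE against LPS, at 298, 185 and 169.

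For the lists of this paragraph, the shares over all kept genes were 23.4% higher and 14.4% lower in LE against LPS. In LEKU against LE they were 6.93% and 11.9%. The 6 NADPH-supplying enzymes held 1 gene higher in LE against LPS and 1 lower in LEKU against LE. In both cases it was Me1, malic enzyme, at 12.1, 19.6 and 7.74, which was named after its values were seen. The first call was lost with quantile normalisation or a pseudocount of 5, and Me1 did not pass a minimum of 50. Being under 10 in LEKU, Me1 passed the filter only through LPS and LE, where it was higher. The median of the 6 in LEKU against LE was -0.36, and 5 of them lay between -1.24 and -0.20, while Pgd, at -0.02, was within the shift between scalings. None of the 7 kept of 8 genes of iron and heme handling passed 1.5-fold in these 2 comparisons, although Hmox1 feeds the same pathway; their medians were -0.12 and 0.04. In LE against LPS 1 passed with library totals and 2 with quantile normalisation or as deposited. Among 10 kept of 12 other antioxidant enzymes, 2 were higher and 2 lower in LE against LPS and 1 was lower in LEKU against LE. The latter was 2 with library totals, the upper quartile or as deposited and 0 with quantile normalisation, and as deposited the former 4 were 2. The higher were Gpx3, which was also the lower one in LEKU against LE, and Osgin1, and the lower were Ogg1 and Nqo2, all but Ogg1 named after their values were seen. Ogg1, which removes oxidised guanine from DNA, was at 299, 175 and 257, -0.76 in LE against LPS (-0.90 to -0.63), and its exons share 232 bases with Camk1 on the opposite strand, at 30.6, 50.9 and 47.2.

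The last list held Atf4 and 7 genes of the stress response that it drives, which is known to include Slc7a11. It too was chosen with earlier results of these data known. In LEKU against LE, 7 of 8 were higher past 1.5-fold, where 6.93% of all kept genes were, and 1 was lower, where 11.9% were. The list median was 1.00, whereas Slc7a11 differed by -0.52. Atf4 itself was at 8757 in LPS, 5673 in LE and 11293 in LEKU and was named for its role. Trib3, a pseudokinase, was at 759, 370 and 1345, a difference of 1.86 in LEKU against LE (1.78 to 1.94), and Chac1, which breaks down glutathione, was at 419, 154 and 464, a difference of 1.58 (1.46 to 1.72). In LE against LPS 4 of 8 were lower (Atf4, Trib3, Chac1 and Asns) and 1 higher, beside 14.4% and 23.4% of all kept genes. The list median was -0.56. The gene past 1.5-fold against the direction of the others in both was Cbs, of cysteine synthesis from homocysteine, at 15.7, 164 and 52.9, named after its values were seen. Atf3 and Ddit3 differed by 0.37 and 0.02 in LE against LPS, within 1.5-fold.

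**Figure D5:**
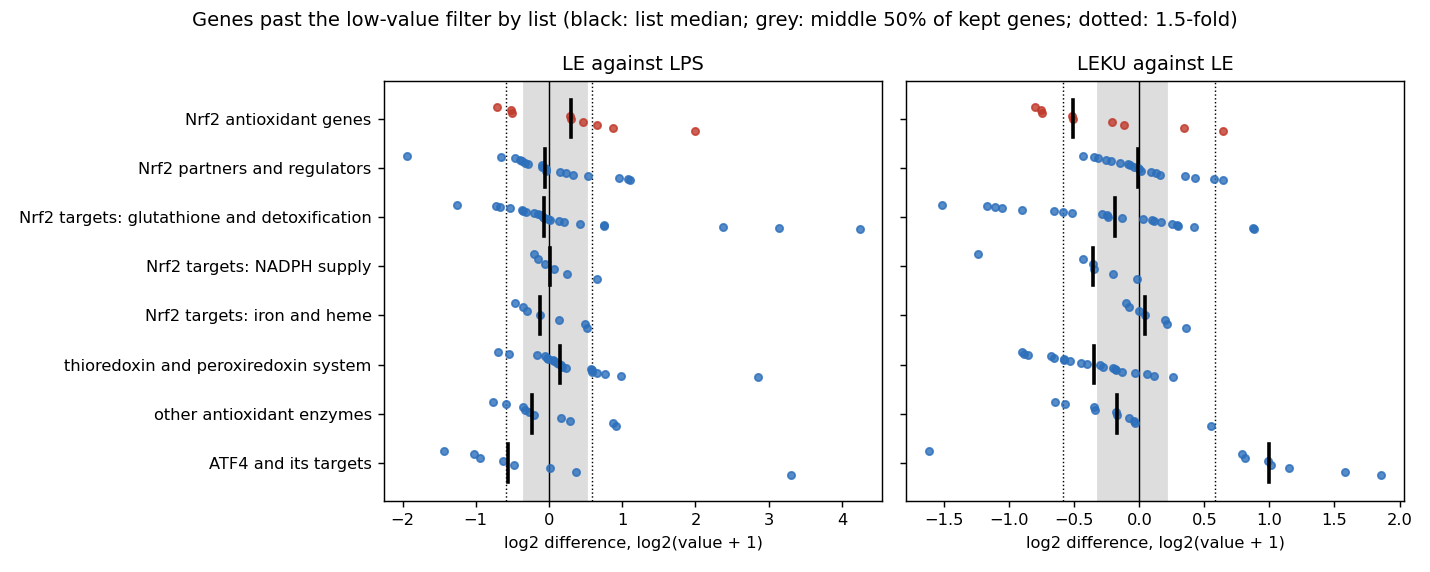
Differences on the log2(value + 1) scale of the 9 kept Nrf2 antioxidant genes (red) and of the kept genes of the 7 lists (blue), in LE against LPS and LEKU against LE; each point is a gene, black bars are list medians, the grey band is the middle 50% of kept genes and dotted lines are 1.5-fold. The list of Atf4 and its targets is the one whose median lies beyond 1.5-fold, at 1.00 in LEKU against LE.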

How the data were processed

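Groups and replicates came from the sample labels. Per the submitters' processing notes and the methods, the authors trimmed reads (Trim Galore, cutadapt 1.2.1), mapped them to GRCm38 with TopHat2 2.0.12, counted them per gene with HTSeq and fitted DESeq2 1.6.3. The table deposited by the authors holds a signal per gene and library, named normalized counts, in which 0% of values are whole and each value is a fitted group mean times a library factor. Whether the fit moved differences between groups toward 0 is not stated in the sources used here. No value in the table was 0, and the smallest was 0.0635, although a plain mean is 0 in a group without reads. Gsta1, for example, was at 0.080 in LPS, 0.083 in LE and 0.093 in LEKU. Differences of genes near the floor may thus be understated, and the counting intervals do not cover this. Deposited tables of the 3 comparisons (mean, log2 fold change, standard error, Wald score, p and adjusted p) hold the authors' results and were not used.

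Columns were divided by median-of-ratios factors set on 13712 genes with at least 10 in every column. Differences used log2(value + 1), with kept genes at 10 or more in at least 4 libraries and a limit of 1.5-fold. The planned limma test needs a replicate spread and could not be run. The 95% counting intervals are exact conditional binomial (Clopper-Pearson) ones on the summed 4 columns, for the ratio without the added 1. Gene models were GENCODE M21, which holds 99.2% of the gene IDs. Scripts in Python 3.11.15 (pandas 2.3.3, numpy 2.4.6, scipy 1.17.1; figures in matplotlib 3.10.9) were tested on simulated data. The alternatives were 5 other scalings, a further 1 chosen after seeing the data, 2 pseudocounts, 2 filters, a 2-fold limit and each library left out. Named list genes are up to 2 per direction, list and comparison (LE against LPS, LEKU against LE), past 1.5-fold, with a mean of at least 100. The 10 genes, the lists and these rules were chosen with earlier results of these data known. A planned B cell marker is not reported here.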

Additional observations from a re-analysis of the deposited data

How the results depend on the processing

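No paired analysis was possible because the columns of a group hold 1 fitted value and no replicate spread. None of the 10 genes changed sign in a comparison where it was past 1.5-fold, under any alternative run. Pseudocounts, filters and TMM factors (trim of 30% on ratios and 5% on levels) moved none of the counts of the 10 genes beyond 1.5 times. Leaving out a library changes the factors alone, because its group keeps the same fitted value, and so says nothing of the spread between replicates. It gave 5852 to 5908, 2936 to 2959 and 5606 to 5656 kept genes past 1.5-fold in LE against LPS, LEKU against LE and LEKU against LPS, and medians of the 10 genes of 0.38 to 0.387, -0.391 to -0.383 and 0.221 to 0.232. The median in LEKU against LPS (0.228) was 0.355 with library totals, 0.32 with the upper quartile, 0.148 with quantile normalisation, 0.416 as deposited and 0.395 with factors from the most abundant genes, a scaling chosen after seeing the data. In LE against LPS (0.383) it was 0.659 as deposited and 0.486 with the most abundant genes, and in LEKU against LE (-0.387) it was -0.472 as deposited. The number of the genes past 1.5-fold in LEKU against LPS was 4 instead of 2 with quantile normalisation (adding Txnrd1 and Nqo1) and 4 as deposited (adding Nfe2l2 and Srxn1). At 2-fold, 1 gene passed in LE against LPS (Hmox1) and 0 in LEKU against LE, and the kept genes past the limit were 3163, 999 and 2701 instead of 5892, 2945 and 5651. The stricter motif, with an A after the core, was in 1 gene instead of 5.

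Scaling also moved the median of all kept genes in LE against LPS, from 0.041 to -0.098 with quantile normalisation and 0.32 as deposited, and the share of higher genes among those past 1.5-fold from 61.9% to 44.6% and 82.1%. In LEKU against LE that share was 36.7%, with 49.2% and 25.3% under the same alternatives. In LEKU against LPS it was 60.7%, with 49.1%, 77.0%, 72.1% with library totals and 75.4% with the most abundant genes. The cause of these shifts was not tested.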

Other observations

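Ratios of partner genes do not depend on a scaling that divides each library by 1 factor, since the factor cancels. Quantile normalisation is not of this kind, and under it the difference of Prdx1 in LE against LPS (0.547) was larger than that of Srxn1 (0.331), where it was smaller before (0.297 and 0.874). The pairs were chosen after the values were seen, and no test was made. The ratios below are of read counts, not corrected for gene length, so their size is not a ratio of transcripts. Per exonic kilobase, Nfe2l2 to Keap1 was 0.784 in LPS, 2.02 in LE and 1.38 in LEKU. In the same groups Gclc to Gclm was 4.94, 9.84 and 5.81, and Slc7a11 to Slc3a2 was 0.0215, 0.0166 and 0.00632. The ratio of Nfe2l2 to Keap1 counts, activator to inhibitor, was 0.634 in LPS (95% counting interval 0.606 to 0.662), 1.63 in LE (1.57 to 1.70) and 1.11 in LEKU (1.07 to 1.16). The ratio of Gclc to Gclm, the catalytic and modifier subunits of 1 enzyme, was 2.96 in LPS (2.81 to 3.12), 5.89 in LE (5.59 to 6.21) and 3.48 in LEKU (3.32 to 3.64), so LEKU lay nearer to LPS than to LE. The ratio of Slc7a11 to Slc3a2, light to heavy chain of the cystine exchanger, was 0.0849 (0.0802 to 0.0897), 0.0656 (0.0618 to 0.0697) and 0.0249 (0.0232 to 0.0268) in the same order, lowest with KU55933 present. The ratio of Prdx1 to Srxn1 was 1978 (1266 to 3481), 1212 (904 to 1695) and 854 (614 to 1268), with wide intervals because Srxn1 was under 10.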
